A study of Komagataella phaffii with 12 samples.

Results

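The comparison described here is that of Komagataella phaffii with a disrupted FLO8 gene (flo8) against its parent, the wild-type strain CBS7435 (WT), at the first fast stage of a glucose-limited chemostat. Its members are the 2 flo8 and the 2 WT libraries grown at 0.1 per hour, 4 of the 12 samples of the series, chosen by strain and stage from the labels. Each library was sampled after 5 residence times (reactor volume divided by feed rate). The labels call the samples of a strain biological replicates, but do not tie a library to a culture. The 6 libraries of the slow stage and of the return to fast growth were not used.

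Chromatin accessibility was measured by FAIRE-Seq, in which chromatin is fixed with formaldehyde, sheared and extracted with phenol. DNA that is not held by nucleosomes goes to the aqueous phase and is sequenced, so that a peak of reads marks open chromatin, most often at promoters and other regulatory regions. Flo8 is known from Saccharomyces cerevisiae as a transcriptional activator of the flocculin (FLO) genes, whose cell wall proteins let cells stick to each other and to surfaces and take part in filamentous growth. The question was which open regions differ when FLO8 is disrupted and cells grow fast, before any slow growth. Regions are given by their position on the CBS7435 genome, counted from 1. They were not assigned to genes, since no gene annotation of this strain was used here.

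The form of the lists differed by strain and this touches every result below. Both flo8 lists hold narrow peaks with a summit and a fold enrichment, and both WT lists hold broad peaks with a score only. Strain and list format therefore cannot be told apart in these data. For this reason peaks were compared by their midpoints and by their rank within a list (rank 1 being the highest score), never by width or score between strains, and each comparison was made with the full lists and again with lists of equal length, in which each list was cut to as many top-ranked peaks as the shortest list (WT replicate 2) holds. The lists carry no read counts, so the depth of the libraries is unknown.

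Open regions were listed more often in flo8 than in WT. The flo8 libraries had 463 and 356 nuclear peaks, against 219 peaks in WT replicate 1 and fewer still in WT replicate 2, the shortest list. Both flo8 lists were longer than both WT lists, and the groups did not overlap. The mean was 410 ± 75.7 peaks in flo8 and 209 ± 14.1 peaks in WT (SD, n = 2 each), a 1.94-fold ratio of geometric means (log2 difference 0.96). An exact two-sided permutation test over the 6 arrangements of 2 and 2 libraries gave p = 0.333, the smallest p this design allows, so the design could not reach the usual threshold. The numbers also depend on how the caller was run for each strain, and its part was not tested.

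The higher number was seen on each of the 4 chromosomes. On chromosome 1 there were 149 and 111 peaks in flo8, against 80 and 74 in WT. On chromosome 2 there were 105 and 78 peaks in flo8, against 41 and 37 in WT. Chromosome 3 had 108 and 84 peaks in flo8, against 52 and 39 in WT, and chromosome 4 had 101 and 83 in flo8, against 46 and 49 in WT. As a share of its list, chromosome 1 held 32.2% and 31.2% in flo8, against 36.5% and 37.2% in WT, and chromosome 2 held 22.7% and 21.9% in flo8, against 18.7% and 18.6% in WT. Regions that were also called in the input controls, which are fixed chromatin decrosslinked before extraction, made up 2.81% and 4.21% of the flo8 peaks, against 9.59% and 8.54% of the WT peaks. The part of peak width in this difference was not tested.

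**Figure D1:**
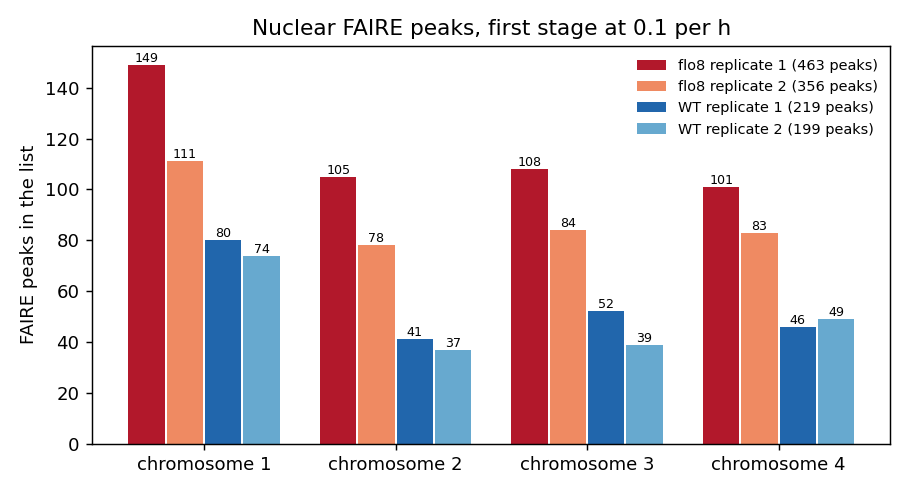
Number of nuclear FAIRE peaks (vertical axis) in each of the 4 libraries on chromosomes 1 to 4, 1 bar per library. On every chromosome both flo8 bars (78 to 149 peaks) stand above both WT bars (37 to 80 peaks) of the same chromosome.

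To follow single open regions across the strains, peaks whose midpoints lay within 500 bp of the next were joined into loci. The 4 full lists gave 523 loci. Of these, 171 were in both flo8 lists and in no WT list (32.7% of all loci), 30 were in both WT lists and in no flo8 list (5.74% of all loci), and 120 were in all 4 lists. A further 66 loci were in lists of both strains but not in all 4, and 136 were in 1 list alone, of which 90 were in flo8 replicate 1 only. Because the flo8 lists are longer, these counts favour flo8 by construction. Without flo8 replicate 2 the flo8-only count was 261, and without WT replicate 1 or WT replicate 2 the WT-only count was 46 or 49, since a single library then stood for the strain.

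Lists of equal length gave 355 loci, of which 67 were in both flo8 lists only (18.9% of all loci), 71 in both WT lists only (20% of all loci) and 69 in all 4 lists. Lists of 1 length give each strain about the same number of replicated loci (159 in flo8 and 160 in WT), so the near equality of the strain-only counts is set by the cut and is no result. Most of the WT-only loci of this comparison were not missing from flo8. Of the 71, 29 were in both full flo8 lists, 14 in 1 of them and 28 in neither. Of the 67 flo8-only loci, 60 were in neither full WT list and 7 were in 1, but the WT lists hold at most 219 peaks and have little or nothing beyond the peaks taken.

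**Figure D2:**
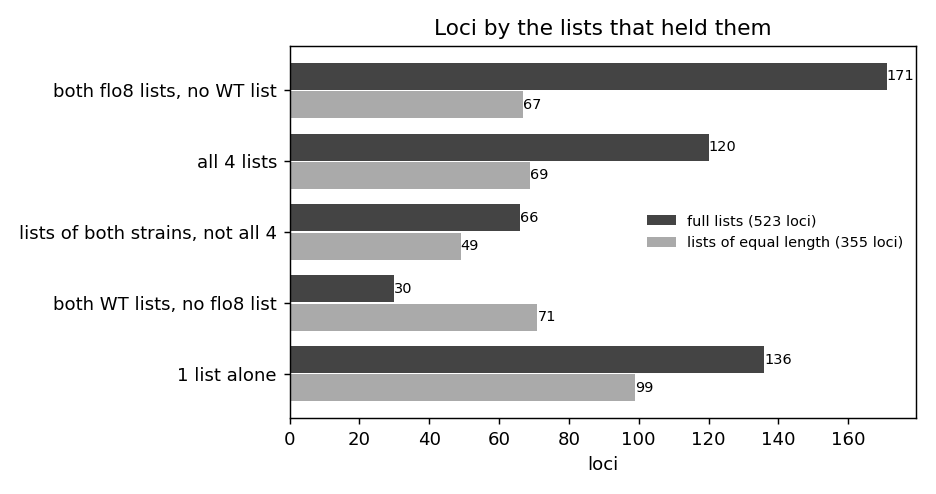
Number of loci (horizontal axis) by which lists held them, for the full lists (523 loci, dark) and for lists of equal length (355 loci, light). With full lists 171 loci were in both flo8 lists only and 30 in both WT lists only, and with lists of equal length 67 and 71.

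Read from each strain in turn, 159 of the 330 loci found in both flo8 lists were also in a WT list, 48.2% (95% Clopper-Pearson interval 42.7 to 53.7%). Of the 167 loci found in both WT lists, 137 were in a flo8 list, 82.0% (75.4 to 87.5%). In lists of equal length the shares were 57.9% of 159 flo8 loci (49.8 to 65.6%) and 55.6% of 160 WT loci (47.6 to 63.5%). The intervals cover counting error over loci only. Each share divides an overlap by the number of loci of the strain. The overlaps were 159 and 137 loci in the full lists, and 92 and 89 in lists of equal length. In the full lists the gap between the shares of flo8 and WT thus goes mostly with the divisors, 330 and 167, and so with the lengths of the lists. In neither case is the gap a result about the strains.

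Libraries of 1 strain resembled each other more than libraries of different strains. The Jaccard index, the loci in both lists divided by the loci in either, was 0.72 for the flo8 pair and 0.67 for the WT pair. The 4 pairs made of a flo8 and a WT library had 0.33, 0.31, 0.37 and 0.32, all below both pairs of replicates. The mean within strains exceeded that between strains by 0.36. For lists of equal length the index was 0.68 for the flo8 pair, 0.67 for the WT pair and 0.28 to 0.32 between strains, a difference of 0.37. In both cases the true pairing was the most extreme of the 3 ways to pair 4 libraries (p = 0.333 in an exact permutation over these pairings, one-sided, which is also its lowest possible value). Shorter lists left the order as it was, with 0.67 in flo8, 0.71 in WT and a mean of 0.27 between strains at 150 peaks, and 0.60, 0.67 and 0.20 at 100 peaks.

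**Figure D3:**
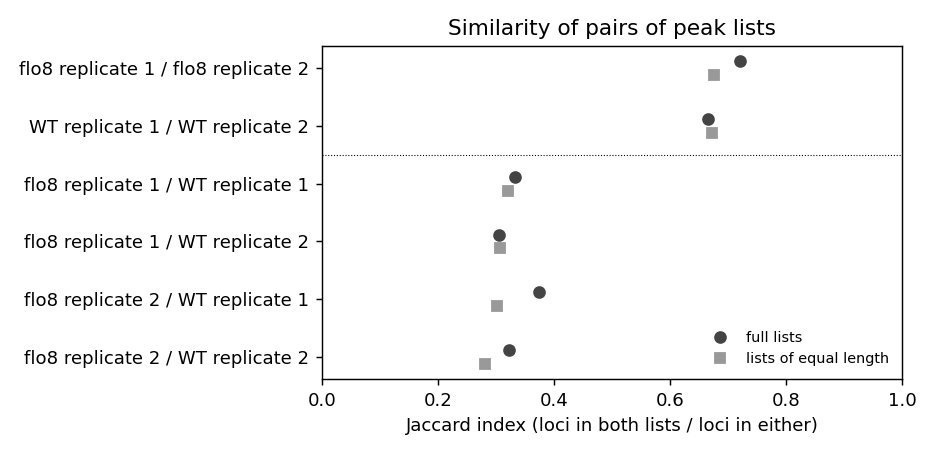
Jaccard index (horizontal axis, 0 to 1) of each of the 6 pairs of lists, with the pairs of replicates above the dotted line and the pairs of a flo8 and a WT library below it. Circles are the full lists and squares the lists of equal length. Pairs of replicates lie at 0.67 to 0.72 and pairs across strains at 0.28 to 0.37.

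The leading peaks of each full list were found in the other strain more often than its weakest peaks. The top quartile by rank was at a locus of the other strain for 72.4% and 71.9% of the flo8 peaks, against 90.9% and 88% of the WT peaks. In the lowest quartile the shares were 34.8% and 38.2% in flo8, against 70.4% and 73.5% in WT. The decline was larger in the flo8 lists, which are longer, and this difference was not tested. Among lists of equal length the top quartile was matched for 66% and 76% of the flo8 peaks, against 60% and 54% of the WT peaks, and the lowest quartile for 32.7% and 36.7% in flo8, against 44.9% and 46.9% in WT. Within a strain, 100% and 98.9% of the top quartile of the full flo8 lists were matched in the other replicate, against 100% and 96% in WT. In the lowest quartile these shares were 40% and 93.3% in flo8, against 38.9% and 65.3% in WT. For both WT lists this was below the share matched in the other strain. A match in the other strain could come from either of its lists, and a match within a strain only from the other replicate.

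**Figure D4:**
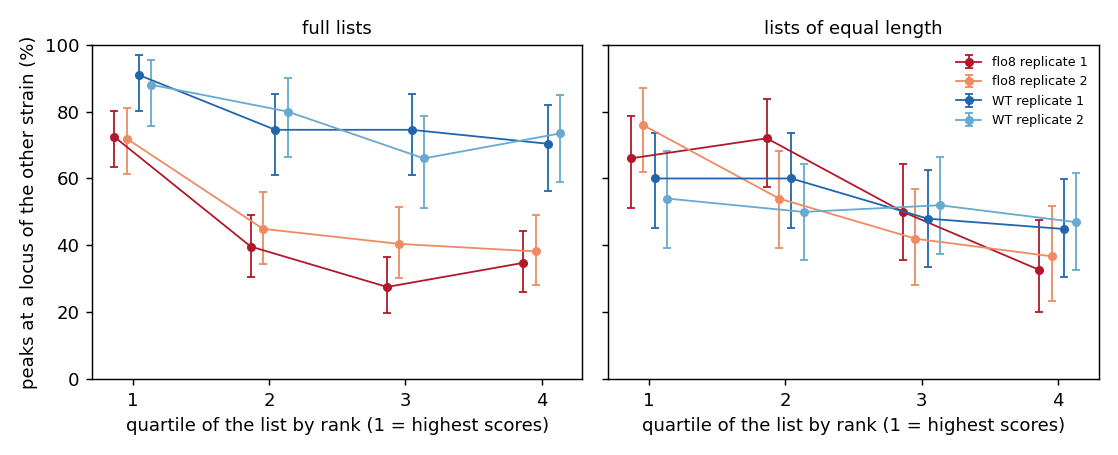
Share of peaks at a locus of the other strain (vertical axis, %) by quartile of the list, quartile 1 having the highest scores, for the full lists (left) and the lists of equal length (right). Points are libraries and bars are 95% Clopper-Pearson intervals. In the full lists the flo8 libraries stand at 34.8% and 38.2% in quartile 4, and the WT libraries at 70.4% and 73.5%.

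Fold enrichment over the control is given for the flo8 peaks alone. At loci in all 4 lists the median fold was 3.60 and 3.13 in the flo8 libraries, and at the 171 flo8-only loci it was 3.23 and 2.86. Loci in flo8 replicate 1 alone had a median of 2.80. The ranges overlapped widely. In flo8 replicate 1 they were 2.27 to 5.13 at the loci in all 4 lists and 1.24 to 4.30 at the flo8-only loci. In flo8 replicate 2 they were 2.19 to 4.27 and 1.58 to 4.52, the flo8-only loci there holding the higher maximum. No such value exists for the WT peaks in these lists.

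Among the loci in all 4 lists, the one with the best mean rank was on chromosome 1 from 2729914 to 2731257. It ranked 1 and 2 in the flo8 lists (fold 5.13 and 4.15), against 27 and 24 in the WT lists. The next was on chromosome 1 from 1176763 to 1178309, with ranks 5 and 30.5 in flo8, against 21 and 9 in WT. A locus on chromosome 3 from 751547 to 753174 ranked 28 and 30.5 in flo8, against 6 and 7 in WT. These 3 loci were among the leading peaks of every list. The remaining 2 named by the same rule, on chromosome 1 from 804730 to 806412 and on chromosome 2 from 1198221 to 1199341, ranked 5 to 15 in flo8, against 20 to 52 in WT. With a gap of 250 bp the WT peaks at 751547 and 804730 no longer had a flo8 peak in their locus.

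The leading flo8-only locus was on chromosome 1 from 1365034 to 1365292. It ranked 8 and 1 in the flo8 lists, with a fold of 4.25 and 4.52, and the nearest WT midpoint was 1540 bp away. The others were on chromosome 1 from 1192236 to 1192510 (ranks 22 and 7), chromosome 3 from 1755433 to 1755709 (26 and 6), chromosome 2 from 114913 to 115191 (19 and 25) and chromosome 1 from 2178906 to 2179167 (32 and 15), and their nearest WT midpoint lay 9497 to 29961 bp away. The same 5 loci led in lists of equal length. These loci of high rank in both flo8 replicates thus had no listed WT peak joined to them. The leading one still had a locus of both WT lists nearby, from 1363158 to 1364090. Over all 171 flo8-only loci the median distance to a WT midpoint was 13210 bp, and 7 had one within 1000 bp. Of the 171, 6 overlapped a WT peak by at least 1 bp, although no WT midpoint was joined to them.

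The leading WT-only locus was on chromosome 1 from 1940792 to 1942888, with ranks 4 and 2 in the WT lists. A flo8 midpoint lay 634 bp away, and with a gap of 1000 bp, or when peaks that share at least 1 bp were joined, this locus was no longer WT-only. The next were on chromosome 1 from 439531 to 441548 (ranks 17 and 16), chromosome 4 from 1242830 to 1244499 (22 and 23), chromosome 4 from 129481 to 132111 (31 and 19) and chromosome 1 from 365438 to 366962 (58 and 31), with the nearest flo8 midpoint 5824 to 40713 bp away. Among peaks of lists of equal length, the locus at 1940792 led again, followed by chromosome 1 from 2458214 to 2460281 (ranks 3 and 3), chromosome 3 from 2173614 to 2175608 (5 and 8), chromosome 3 from 1140361 to 1141877 (7 and 10) and chromosome 4 from 635472 to 637761 (9 and 11). These 4 were all in both full flo8 lists, so they were listed in flo8 as well. A separate flo8 peak inside the locus at 635472 ranked 164.5 and 138, and this locus was not WT-only with a gap of 1000 bp or with peaks that share at least 1 bp.

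Position along the chromosome was described by class, without a test. Of the flo8-only loci, 5 of 171 (2.92%) lay within 100 kb of a chromosome end, taken as the highest coordinate in any of the lists. Of the WT-only loci it was 5 of 30 (16.7%), of the loci in all 4 lists 13 of 120 (10.8%), and of all loci 37 of 523 (7.07%). In lists of equal length the counts were 1 of 67 flo8-only loci (1.49%) and 10 of 71 WT-only loci (14.1%), beside 29 of all 355 loci (8.17%). Loci over an input region were 5 of the 171 flo8-only loci (2.92%), 3 of the 30 WT-only loci (10%) and 7 of the 120 loci in all 4 lists (5.83%), beside 29 of all 523 loci (5.54%).

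Distances between midpoints were taken at loci where each list of a pair had a single peak, and they are limited from the start, since joining midpoints at gaps of at most 500 bp decides which peaks share a locus. Within that limit the median absolute distance was 7 bp for the flo8 pair (n = 309 loci) and 23 bp for the WT pair (n = 167 loci). Between a flo8 and a WT library it was 33.8 to 52.5 bp (n = 123 to 144 loci), and the median signed distance ran from -2.5 to 5.5 bp. Midpoints lay within 100 bp of each other at 99.7% of the loci of the flo8 pair, 86.2% of the WT pair and 62.6 to 74.3% between strains. WT peaks are broader, and the part of width in these distances was not tested.

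The order of the shared regions was similar between replicates of a strain and was not kept between strains. Over the 120 loci in all 4 lists, ranked anew among themselves, the Spearman correlation across loci was 0.85 for the flo8 pair and 0.81 for the WT pair. Between a flo8 and a WT library it was 0.03, -0.08, 0.03 and -0.05. The median absolute difference in rank was 10 places between the flo8 replicates and 10.5 between the WT replicates, and 35.4 places between the strain means. For the 69 loci shared by lists of equal length, the correlation was 0.57 for the flo8 pair, 0.82 for the WT pair and -0.14 to -0.04 between strains. Loci are not independent replicates, and each list has a single control and caller behind all of its points.

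**Figure D5:**
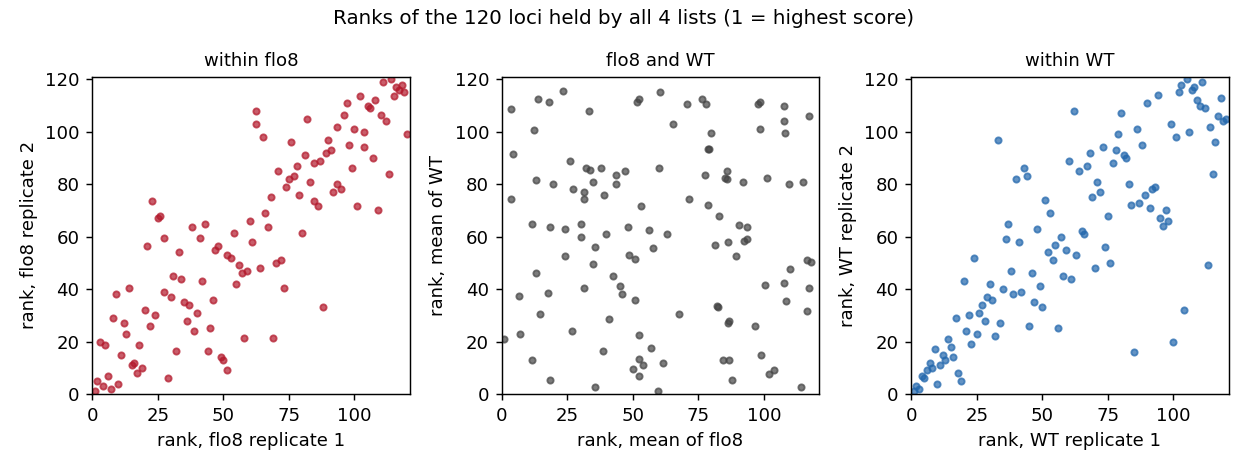
Ranks of the 120 loci in all 4 lists, 1 being the highest score, between the flo8 replicates (left), between the mean of flo8 and the mean of WT (middle) and between the WT replicates (right). Points are loci. They follow the diagonal within strains (Spearman correlation 0.85 and 0.81) and spread over the whole square between strains.

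At 46 of the 120 loci both flo8 ranks were above both WT ranks (38.3%), at 42 both WT ranks were above both flo8 ranks (35%), and at 32 the strains overlapped. In lists of equal length they were 22 (31.9%) and 23 (33.3%) of 69. limma on the normal scores of the ranks, with Benjamini-Hochberg adjustment and a threshold of 0.05, called 28 loci higher in flo8 (23.3%) and 29 higher in WT (24.2%). From lists of equal length it called 10 (14.5%) and 9 (13%). These calls have 2 limits. Ranks are relative, so a locus can be called because others moved past it, and in simulated ranks with many shifted loci the calls held more unshifted loci than the threshold allows. They also rest on both replicates. Leaving out a library also changed the loci tested, to those in all remaining lists. Without flo8 replicate 1, flo8 replicate 2, WT replicate 1 and WT replicate 2 these were 123, 134, 130 and 149 loci from the full lists. From lists of equal length they were 77, 81, 79 and 82 loci in the same order. Without flo8 replicate 1, and without flo8 replicate 2, limma called 0 loci in either direction from the full lists, with 24 and 26 loci higher in flo8 and 30 and 35 higher in WT at an unadjusted p under 0.05. Without WT replicate 1, and without WT replicate 2, it called 9 and 9 higher in flo8, and 16 and 15 higher in WT. From lists of equal length it called 0 in either direction without flo8 replicate 2, WT replicate 1 or WT replicate 2 (unadjusted, 16, 8 and 10 higher in flo8 and 16, 10 and 10 higher in WT), and 6 and 11 without flo8 replicate 1.

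The score of a list moved with the width of its peaks. The Spearman correlation of rank with width across the peaks of a list was 0.67 and 0.57 in the flo8 lists, against 0.87 and 0.87 in the WT lists (a high rank going with a wide peak). At the 120 loci in all 4 lists it was 0.51 and 0.52 in flo8, against 0.86 and 0.90 in WT. There the flo8 ranks correlated with their own fold enrichment at 0.99 and 0.99, a value the WT lists lack. Whether the ranks of the strains order the same quantity was not tested. In an alternative chosen after seeing the data, the ranks were adjusted for width within each list. The correlation across the 120 loci was then 0.81 for the flo8 pair, 0.73 for the WT pair and -0.30 to -0.12 between strains. limma then called 26 loci higher in flo8 and 26 higher in WT, of which 13 and 12 were among the 28 and 29 called before. From lists of equal length it called 8 and 8, of which 6 and 6 were among the 10 and 9 called before.

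The locus with the largest difference towards flo8 was on chromosome 3 from 208304 to 209305. Among the 120 shared loci it ranked 2 and 5 in flo8, against 102 and 115 in WT, a difference in normal score of 3.36 ± 0.35 (SE; limma, adjusted p = 0.00155). It was followed by chromosome 1 from 1131895 to 1132860 (16 and 12 in flo8, against 105 and 120 in WT), chromosome 3 from 1146720 to 1147687 (9 and 38, against 118 and 113), chromosome 1 from 425517 to 426531 (7 and 2, against 88 and 95) and chromosome 2 from 1218313 to 1219260 (13 and 23, against 107 and 116). The locus at 425517 lies over an input region. At all 5 both flo8 ranks were above both WT ranks, as the rule for naming them required.

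Towards WT the largest difference was on chromosome 1 from 2458214 to 2460281. It ranked 115 and 113.5 in flo8 (fold 2.49 and 2.46), against 3 and 2 in WT, a difference in normal score of -3.77 ± 0.27 (SE; limma, adjusted p = 0.000607). The next was chromosome 1 from 2502977 to 2505211, the first peak of both WT lists, at 61 and 58 in flo8, against 1 and 1 in WT, and it lies over an input region. Chromosome 4 from 635472 to 637761 ranked 97 and 111 in flo8, against 8 and 10 in WT. Chromosome 3 from 1140361 to 1141877 ranked 103.5 and 100 in flo8, against 6 and 9 in WT. Chromosome 2 from 1584410 to 1586155 ranked 116 and 117 in flo8, against 20 and 43 in WT. A broad WT peak can span several narrow flo8 peaks, of which only those joined to its midpoint were ranked with it. Inside the locus at 2458214 another flo8 peak ranked 250 and 239.5 in the full flo8 lists, against 439 and 331.5 for the one used. Inside the locus at 635472 another ranked 164.5 and 138, against 282 and 321.5 for the one used, and inside the locus at 2502977 another ranked 54.5 in flo8 replicate 2, against 112.5 for the one used. The rank differences at these 3 loci therefore depend on how peaks were joined. Such a better flo8 peak inside the locus was found at 5 of the 120 shared loci.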

How the data were processed

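FAIRE-Seq peak lists of 2 flo8 and 2 WT libraries were used, with the positions of the 151 regions of 2 input lists. Per the methods, the authors mapped paired-end reads with BWA to the CBS7435 genome, removed reads of low mapping quality and called peaks with MACS2 against input on pooled replicates. The submitters' processing notes name BWA 0.7.13 and SAMtools 1.3. Each deposited list holds the peaks of 1 library. The deposited score of the WT lists is in the style of MACS version 1, and that of the flo8 lists is 10 times the −log10 p-value. The deposited fold ratio over control and the deposited summit offset exist for flo8 only. Of the input lists only positions were used.

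Midpoints with gaps of at most 500 bp were joined into loci (longest span of midpoints 936.5 bp). Ranks of shared loci were turned into normal scores and tested with limma 3.58.1 (R 4.3.3) with 4 libraries and no covariate. Peak number and Jaccard differences were tested by exact permutation, with every arrangement enumerated in Python 3.11.15, and Clopper-Pearson intervals came from scipy 1.17.1. With 2 libraries per strain the limma p-values rest on the spread between these libraries only, moderated over all loci tested. The permutation p-values rest on the order of the few possible arrangements and measure no spread. The joining of peaks into loci and the rank test were tested on simulated data, and the other steps were not. The locus step gave back the simulated loci, but these lay far apart with a single peak per list. Closely spaced peaks, and broad peaks spanning several narrow ones, were not simulated. The rank test gave no call of the wrong sign, but recall was partial where loci traded places, and where many loci shifted it called unshifted loci above the nominal rate. The first rank simulation exceeded the limit set for false calls and a second was added. Both were kept and the limma test was not altered, so its adjusted p-values are to be read as lenient.

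For each class the 5 loci of best mean rank were named, and the 5 of largest rank difference in each direction among those whose strains did not overlap. Members and lists were chosen with earlier results of these data known. Alternatives were gaps of 250 and 1000 bp, overlap by 1 bp, flo8 summits, removal of peaks over input, 100 or 150 peaks, each library left out and a replicate block. Adjusting ranks for width, and leaving out libraries for the Jaccard difference, were added after seeing the data. The mitochondrial sequence was left out of all comparisons.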

Additional observations from a re-analysis of the deposited data

Results flagged for a closer look

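Outside the nuclear chromosomes, each flo8 list held 1 peak on the mitochondrial sequence, with a fold enrichment of 13.2 in flo8 replicate 1 and 13.9 in flo8 replicate 2, against no mitochondrial peak in either WT list or in the input regions. It is given here because it lies in data that the comparisons left out and exceeds the highest nuclear fold of 5.13 and 4.52 in the same lists. The peak ran from 12 to 35676 and from 12 to 35673. Whether the WT lists were limited to the nuclear chromosomes is not stated in the sources used here, and its part was not tested.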

How the results depend on the processing

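The direction of the peak number and Jaccard differences was kept under every alternative run for them. Counts were taken as moved beyond 1.5 times the main count and shares as moved outside the main 95% interval. By this rule 32 values moved and 145 did not. With a gap of 250 bp, 42.4% of flo8 loci were found in WT and 72.2% of WT loci in flo8. With 100 peaks per list there were 19 loci in all 4 lists, 44 flo8-only and 45 WT-only loci, shares of 40.5% and 43.8%, and 2 and 3 rank calls (higher in flo8 and in WT). With 150 peaks 6 of 56 loci were called higher in flo8. Leaving out 1 library at a time gave, from the full lists, 182 to 261 flo8-only and 33 to 49 WT-only loci, shares of 39.4 to 47.4% (flo8 loci in WT) and 73.7 to 80.2% (WT loci in flo8), and 0 to 9 calls higher in flo8 and 0 to 16 higher in WT. From lists of equal length it gave a share of 49.7 to 54.8% (flo8 loci in WT) and 0 to 6 and 0 to 11 calls. The loci tested there were 123 to 149 (full lists) and 77 to 82 (lists of equal length), against 120 and 69 in the main comparison. The lone library of a strain is there assumed to vary like the pair of the other. The cause of the lost calls was not tested.

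Replicate numbers are shared by the strains, but nothing in the labels says that they pair the cultures. The correlation across loci of the replicate differences of the strains was 0.04 (full lists) and 0.27 (lists of equal length). With the replicate number as a block, the rank calls were 33 and 30 (full lists) and 13 and 11 (lists of equal length). The Jaccard differences were then 0.37 and 0.37, and the log2 peak number difference 0.96. An exact permutation within pairs gave p = 0.5 for the peak number, the lowest p it can give. The depth of the libraries is unknown, so a region missing from a list was not detected there and is not shown to be closed.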
